A study of Mus musculus with 28 samples.

Results

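Amygdala transcriptomes of female C57BL6/J mice given a single access to 20% alcohol (Acute Drinking group, 9 mice) were compared with those of mice that received no alcohol (Water group, 10 mice). All mice whose titles placed them in either group were included, which gave 19 of the 28 mice of the series. The other 9 mice (Chronic Drinking group) had access to 20% alcohol every other day for a month and served only to estimate the spread between mice and for a side-by-side reading at the end. All animals were adult, unmodified and housed singly with 2 bottles, tissue was punched from both hemispheres, early in the light phase and with the bottles left in place until collection, so as to hold the basolateral and central nuclei, and the mice came from 2 independent batches, with 4 Acute and 4 Water mice in the first and 5 and 6 in the second. A single session of free choice leaves the dose to each animal, and bulk punches cannot tell fewer cells of a type from less RNA per cell.

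The amygdala assigns emotional value to stimuli and is one of the brain regions through which alcohol acts on anxiety and reward. Ethanol acts on ion channels such as GABA-A and NMDA receptors within minutes, whereas transcripts sampled hours into access can carry traces of neuronal activity, of stress hormones, of oxidative load and of chromatin regulation. Immediate early genes are switched on by synaptic activity, glucocorticoid-responsive genes by corticosterone through its nuclear receptor, and neuropeptides of the central nucleus such as neurotensin and corticotropin-releasing hormone act as local signals in circuits that govern drinking.

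Libraries held between 20004380 and 22548961 counts, mitochondrially encoded transcripts took 8.23 to 11.6% of the counts over both groups, and 22261 to 23428 genes had at least 1 count. Between the groups, total counts did not differ beyond the spread in a 2-sided exact permutation test within batches (exact p = 0.0997), although in the second batch alone the Acute libraries were slightly deeper (medians 20241016 and 20088116, exact p = 0.0238). Replicates within a group differed by 3.96 to 20.4 times the variance that sampling alone gives over 37 pairs, so no library was a copy of another. Of 15 oligodendrocyte markers, 14 were found in the counts of both batches. All markers of neurons, glia, endothelium and both nuclei that were found had a mean of at least 10 counts. The summed marker level overlapped between the groups for each of 12 cell type or region lists. The summed level of 11 choroid plexus and ependymal markers ranged from 20.1 to 3733 CPM (counts scaled to library size) in Acute mice and from 29.3 to 4103 in Water mice. Of 10 astrocyte markers 3 were higher at an unadjusted p under 0.05, and of 10 markers of oligodendrocyte precursors 2, beside 5.07% of all genes. The 14 oligodendrocyte markers had a median log2 fold change of 0.36 and -0.03 in the batches, with none at that p. The 7 central amygdala markers summed to 390 to 500 CPM in Acute mice (median 458.7) and 367.1 to 451.3 in Water mice (median 405.7).

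The first question was which transcripts differed after a single access. In the edgeR quasi-likelihood fit with batch as a covariate, none of 16266 genes passed a Benjamini-Hochberg adjusted p of 0.05 (0% called, lowest adjusted p = 0.136). At an unadjusted p under 0.05, 825 genes (5.07%) were higher in the Acute Drinking group and 724 (4.45%) were lower. The shifts were small: the median absolute log2 fold change was 0.05 over all genes and 0.13 over those 1549, of which 50 exceeded 1.5-fold. The number of calls differed between tools and routes. When DESeq2 was run with batch in the model, 5 genes (0.0307%) were called higher and 3 (0.0184%) lower, and when ComBat-seq first adjusted the counts for batch and DESeq2 was then run without it, the route that the study's methods describe, 24 of 16293 genes (0.147%) were called higher and 6 (0.0368%) lower. All 8 genes of the former were among the 30 of the latter. These 30 genes organise what follows, and their edgeR values are given throughout, each with an adjusted p above the threshold. They were picked for their difference between these same mice. Their shared sign in both batches and the positions of single mice are therefore a description and not independent evidence. Normalized counts (counts scaled to the mean effective library size) are given over both batches, whose levels differ for some genes, whereas fold changes were fitted with batch as a term.

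**Figure D1:**
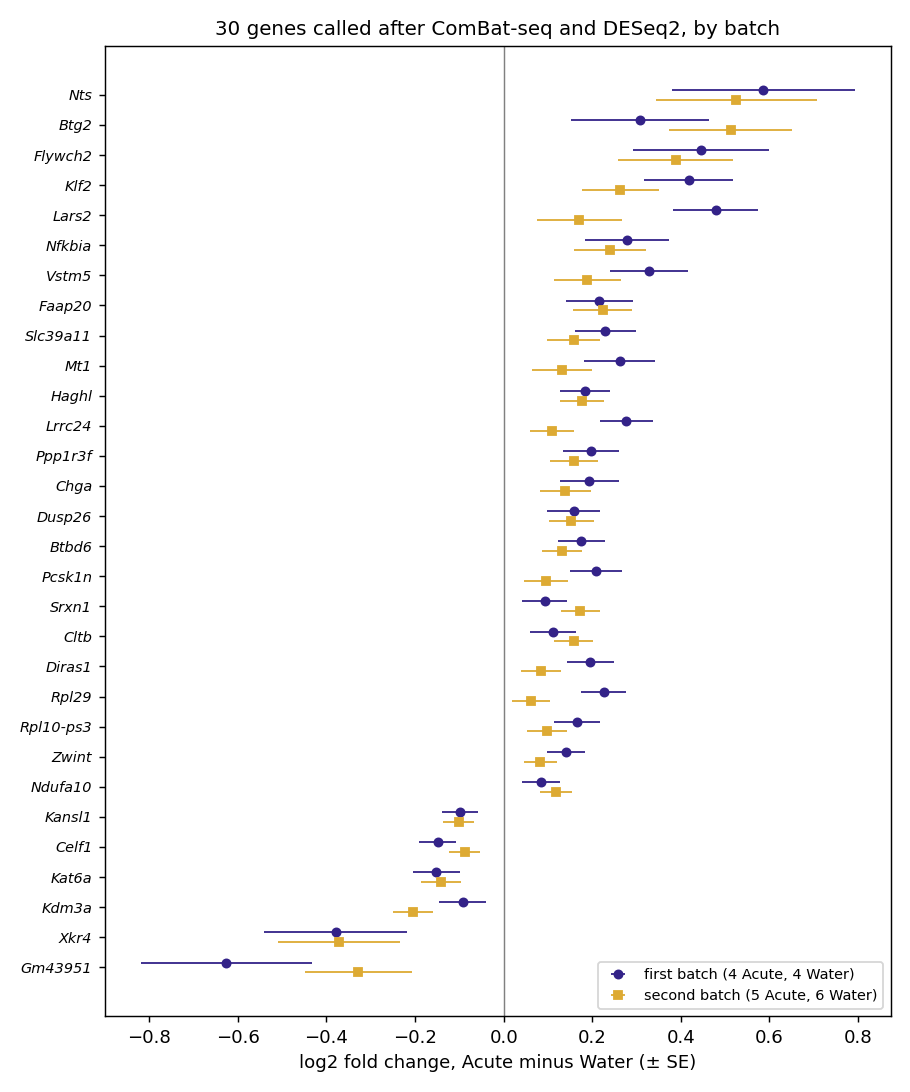
Log2 fold change of each of the 30 genes called after ComBat-seq and DESeq2 (Acute minus Water, horizontal axis, with SE) by batch, as circles for the first (4 Acute and 4 Water mice) and squares for the second (5 and 6). The 24 higher genes lay right of 0 and the 6 lower genes left of 0 in both batches, with *Nts* furthest to the right at 0.59 and 0.53. The genes were picked from these same mice, so the shared sign is a description.

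Among genes listed here for responses to activity and stress, *Klf2*, a zinc-finger transcription factor, gave the lowest p of the higher genes with the same sign in both batches. Its normalized counts lay between 123.3 and 159 in Acute mice (median 138.7) and between 87.2 and 126 in Water mice (median 115.4), so that only the lowest Acute mice met the highest Water mice. The log2 fold change was 0.33 ± 0.07 (SE, adjusted p = 0.136), and all 9 Acute mice stood above the Water mean of their own batch. The study's supplement lists *Klf2* under endothelial cells of the mouse medial amygdala, and which cells gave its counts was not tested. *Btg2*, an antiproliferative immediate early gene, had 361.7 to 644.5 counts in Acute mice (median 485.1) and 253.3 to 528.3 in Water mice (median 386.9), with a log2 fold change of 0.42 ± 0.11 (adjusted p = 0.239). The groups overlapped, with 8 of 9 Acute mice above the Water mean of their own batch and first-batch mouse 33 below it.

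*Nts*, which encodes neurotensin, a peptide made by a subset of central amygdala neurons, had the highest log2 fold change of the 30 genes. Counts ran from 369.3 to 888.6 in Acute mice (median 738.3) and from 285.8 to 652.9 in Water mice (median 452.5). The log2 fold change was 0.55 ± 0.13 (adjusted p = 0.194), with 8 of 9 Acute mice above the Water mean of their own batch. One Acute mouse of the second batch, at 369.3, lay below the median of the Water mice. A pair of stress-linked genes varied less between mice. *Nfkbia*, the inhibitor that holds NF-kB in the cytoplasm and is itself an NF-kB and glucocorticoid target, had 304.1 to 404.2 counts in Acute mice (median 324) and 250.7 to 332 in Water mice (median 280.2), with a log2 fold change of 0.26 ± 0.06. *Mt1*, a metal-binding metallothionein, had 1675 to 1934 counts in Acute mice (median 1815) and 1414 to 1731 in Water mice (median 1599), with a log2 fold change of 0.19 ± 0.05 (adjusted p = 0.348). In the first batch the Acute and Water mice did not overlap for *Mt1* (1675 to 1836 and 1414 to 1518), and in the second they met between 1727 and 1731.

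**Figure D2:**
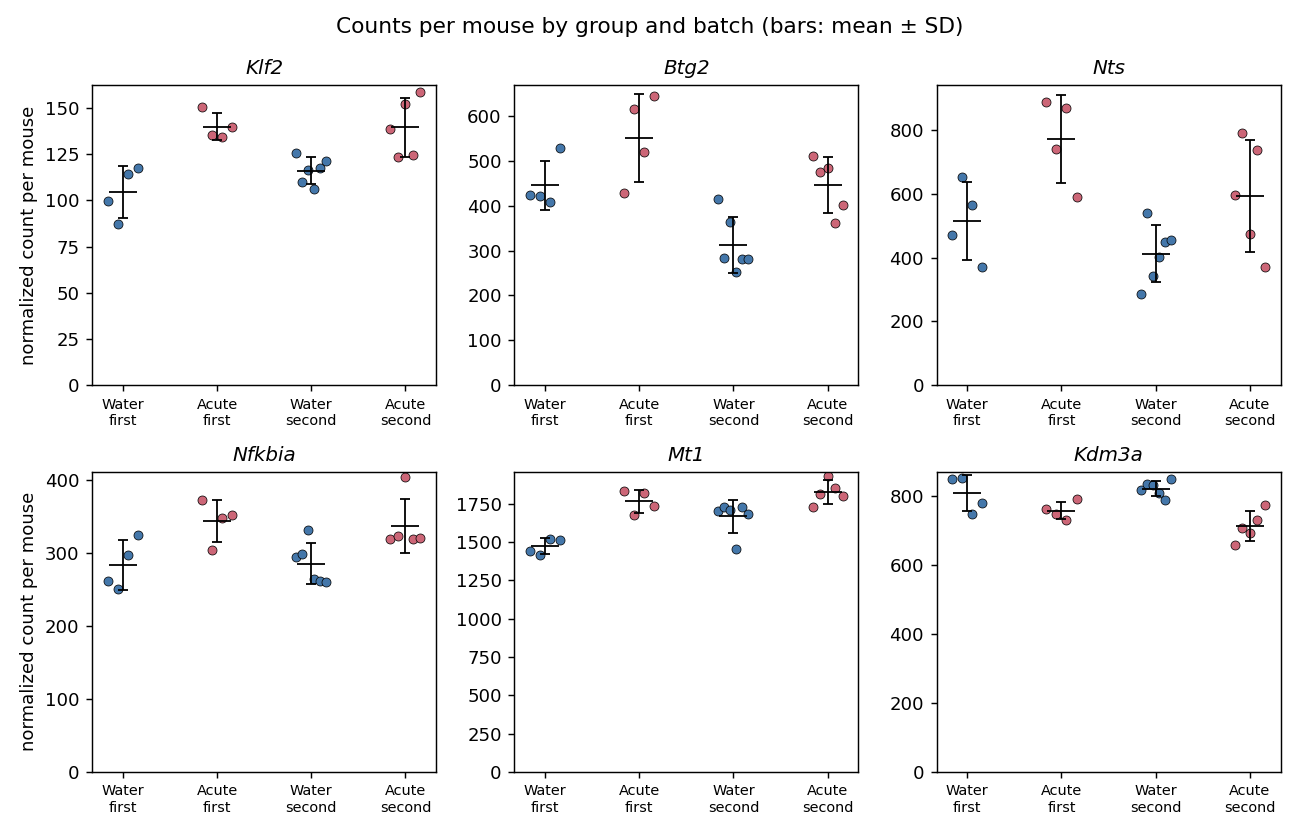
Normalized count per mouse (vertical axis from 0) of *Klf2*, *Btg2*, *Nts*, *Nfkbia*, *Mt1* and *Kdm3a* in Water and Acute mice of the first and second batch, with mean ± SD bars. The Acute mean lay above the Water mean in both batches for the first 5 genes and below it for *Kdm3a*, while single mice of the groups overlapped in most panels.

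For these 5 genes, the 250 bases before a RefSeq start site (GRCm38.p6) are printed below, 5′ to 3′ on the gene's own strand, in lower case with the matches to 1 motif per gene in capitals. A single window is shown per gene and need not hold all of its promoter. The windows are chr8:72318812-72319061 on the plus strand for *Klf2*, chr1:134079156-134079405 on the minus strand for *Btg2*, chr10:102490419-102490668 on the minus strand for *Nts*, chr12:55492648-55492897 on the minus strand for *Nfkbia* and chr8:94178839-94179088 on the plus strand for *Mt1*. 
Klf2: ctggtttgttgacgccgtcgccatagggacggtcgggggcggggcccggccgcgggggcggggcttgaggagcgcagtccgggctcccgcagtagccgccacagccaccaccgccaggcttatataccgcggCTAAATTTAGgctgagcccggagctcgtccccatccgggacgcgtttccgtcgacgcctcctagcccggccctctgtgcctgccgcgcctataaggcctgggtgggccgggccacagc
Btg2: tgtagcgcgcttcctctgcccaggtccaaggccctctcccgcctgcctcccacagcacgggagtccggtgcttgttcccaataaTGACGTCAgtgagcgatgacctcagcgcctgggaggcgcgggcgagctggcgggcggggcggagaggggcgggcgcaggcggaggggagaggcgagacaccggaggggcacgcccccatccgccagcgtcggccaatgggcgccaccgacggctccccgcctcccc
Nts: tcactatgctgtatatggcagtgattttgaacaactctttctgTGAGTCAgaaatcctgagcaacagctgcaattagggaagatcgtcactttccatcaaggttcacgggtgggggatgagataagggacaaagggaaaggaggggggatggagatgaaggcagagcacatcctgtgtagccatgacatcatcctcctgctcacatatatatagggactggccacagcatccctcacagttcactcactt
Nfkbia: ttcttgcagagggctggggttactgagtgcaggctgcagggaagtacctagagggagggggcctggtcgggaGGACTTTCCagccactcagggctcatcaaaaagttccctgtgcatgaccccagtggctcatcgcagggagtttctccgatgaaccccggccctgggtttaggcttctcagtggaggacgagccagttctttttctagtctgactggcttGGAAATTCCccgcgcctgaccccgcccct
Mt1: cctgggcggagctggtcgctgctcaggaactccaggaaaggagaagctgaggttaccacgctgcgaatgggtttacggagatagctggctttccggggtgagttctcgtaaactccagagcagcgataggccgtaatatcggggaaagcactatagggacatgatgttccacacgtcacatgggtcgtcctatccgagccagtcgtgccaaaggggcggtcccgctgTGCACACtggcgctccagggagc
Capitals mark the MEF2 motif in *Klf2*, the cyclic AMP response element TGACGTCA in *Btg2*, the AP-1 motif TGANTCA in *Nts*, the NF-kB core GGANNTTCC in *Nfkbia* and the metal response element core, TGCACNC or TGCGCNC, in *Mt1*. RefSeq windows were found for 75 of the 107 named genes. Both strands were searched, and the motifs were picked from what is known of these genes. The matches began 118 bases before the start site in *Klf2*, 166 in *Btg2*, 207 in *Nts*, 178 and 29 in *Nfkbia* and 23 in *Mt1*. Of 32851 promoter windows of the same length, 2.92% held the MEF2 motif, 1.55% the cyclic AMP response element, 6.75% the AP-1 motif, 3.59% the NF-kB core and 21.4% the metal response core. A match describes letters in these windows and no binding was measured.

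Of the 30 called genes, 6 were lower in Acute mice, and 4 of these act on chromatin or RNA. *Kdm3a*, a demethylase of histone H3 lysine 9, had 657.6 to 788.8 counts in Acute mice (median 729.2) and 745.6 to 851.4 in Water mice (median 822.1). Its log2 fold change was -0.16 ± 0.04 (adjusted p = 0.194) and none of the 9 Acute mice exceeded the Water mean of its own batch. *Kat6a*, a histone acetyltransferase, had 1235 to 1427 counts against 1324 to 1645 (medians 1298 and 1410), with a log2 fold change of -0.15 ± 0.03. *Kansl1*, the scaffold of the NSL acetyltransferase complex, had 1624 to 1888 counts against 1782 to 1995 (medians 1732 and 1863), with a log2 fold change of -0.10 ± 0.03. *Celf1*, an RNA-binding regulator of splicing and mRNA decay, had 4106 to 4413 counts against 4217 to 4979 (medians 4260 and 4563), with a log2 fold change of -0.11 ± 0.03. For each of these 3 genes, too, no Acute mouse reached the Water mean of its own batch. *Xkr4*, a membrane protein of the XK-related family, had 594.6 to 1032 counts in Acute mice and 801.5 to 1441 in Water mice, with a log2 fold change of -0.38 ± 0.10. The last of the 6, the predicted gene *Gm43951*, had 53 to 667 counts in Acute mice and 91.3 to 757.8 in Water mice, with a log2 fold change of -0.41 ± 0.10. It overlaps *4933427D14Rik*, which had a log2 fold change of 0.23 ± 0.16 (-0.15 and 0.61 in the batches), and reads may have been divided between them.

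The remaining higher genes had varied roles. For metabolism and detoxification, *Haghl*, a glyoxalase II-like hydrolase, had 905.5 to 1131 counts in Acute mice (median 1016) and 790 to 1047 in Water mice (median 875). Its log2 fold change was 0.18 ± 0.04 (adjusted p = 0.136), with 0.18 in each batch, although 29.1% of the 31-base words of its longest transcript also occur in transcripts of the overlapping gene *Narfl*, so that reads may have been divided between them. *Srxn1*, the sulfiredoxin that restores oxidised peroxiredoxins, had 1289 to 1522 counts against 1202 to 1399, with a log2 fold change of 0.14 ± 0.03. *Slc39a11*, a zinc transporter, had a log2 fold change of 0.19 ± 0.04, and *Ndufa10*, a subunit of respiratory complex I, one of 0.10 ± 0.03. In secretory and membrane traffic, *Chga* (chromogranin A, 2611 to 3982 counts against 2373 to 3725) differed by 0.16 ± 0.04 on the log2 scale, *Pcsk1n*, the proSAAS inhibitor of prohormone convertase, by 0.14 ± 0.04, and *Cltb*, clathrin light chain B, by 0.14 ± 0.03. *Flywch2*, a small FLYWCH zinc-finger gene of low abundance, had 56.6 to 82.9 counts against 39.5 to 70.8 and a log2 fold change of 0.41 ± 0.10. *Faap20*, of the Fanconi anaemia pathway, and *Vstm5*, an immunoglobulin-domain membrane protein of neurons, had log2 fold changes of 0.22 ± 0.05 and 0.25 ± 0.06. The other genes, *Btbd6*, *Lrrc24*, *Zwint*, *Dusp26*, *Diras1*, *Rpl29*, *Rpl10-ps3* and *Ppp1r3f*, had log2 fold changes of 0.11 to 0.18. *Lrrc24*, *Rpl29*, *Ppp1r3f* and *Rpl10-ps3* share 54.7, 49.1, 56.2 and 96.6% of these words with other genes, and their counts are uncertain to that extent. Of the 30 genes that the study listed for acute drinking, 24 were higher and 5 lower at an unadjusted p under 0.05, and the remaining gene, *4933427D14Rik*, had a log2 fold change of 0.23 ± 0.16 (edgeR unadjusted p = 0.149). The study lists that gene as lower. *Gm43951*, which overlaps it and is not on the study's list, was lower here, at -0.49 after ComBat-seq and DESeq2. Whether both symbols stand for the same counts was not tested. That list was drawn from these same libraries and is not independent evidence of its direction.

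*Lars2*, the mitochondrial leucyl-tRNA synthetase, was among the genes of the 30 whose level differed severalfold between batches, as *Gm43951* did in the other direction. In the first batch it had 2445, 2648, 2752 and 3153 counts in Acute mice and 1799, 2025, 2026 and 2044 in Water mice, and in the second batch 360.1 to 444.7 in 5 Acute mice (median 386.6) and 315.7 to 382.7 in 6 Water mice (median 349.8). Groups were apart in the first batch and overlapped in the second. The log2 fold change was 0.48 ± 0.10 and 0.17 ± 0.10 in the batches (interaction p = 0.031, adjusted p = 0.999). The ribosomal RNA gene *CT010467.1* on chromosome 17 also stood apart there: in the first batch it had 17810, 30040, 33140 and 34230 counts in Acute mice against 12870, 13920, 14850 and 17080 in Water mice, while the second-batch values were 8.36 to 14.9 against 9.51 to 20.1. Its log2 fold change over both batches was 0.85 ± 0.16 (edgeR adjusted p = 0.136), with 0.97 and -0.23 in the batches (interaction p = 0.019, adjusted p = 0.999), and it was called without the filter on low counts, by limma-voom and when Acute mouse 34 was left out. *Mir6236*, a short annotated transcript, had 317.7 to 401.4 counts in first-batch Acute mice against 215 to 247.7 in first-batch Water mice, and 0 in every second-batch mouse. Its log2 fold change of 0.63 therefore rests on 8 mice. The longest *Lars2* transcript shares 26 of its 31-base words with *AA474408*, 22 with the predicted gene *Gm15564* and none with *CT010467.1*. *CT010467.1* itself shares 1214 of its 1819 words with *Gm42418* and 893 with *AY036118*, so that its counts are uncertain. The part of residual ribosomal RNA in the *Lars2* difference was not tested.

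**Figure D3:**
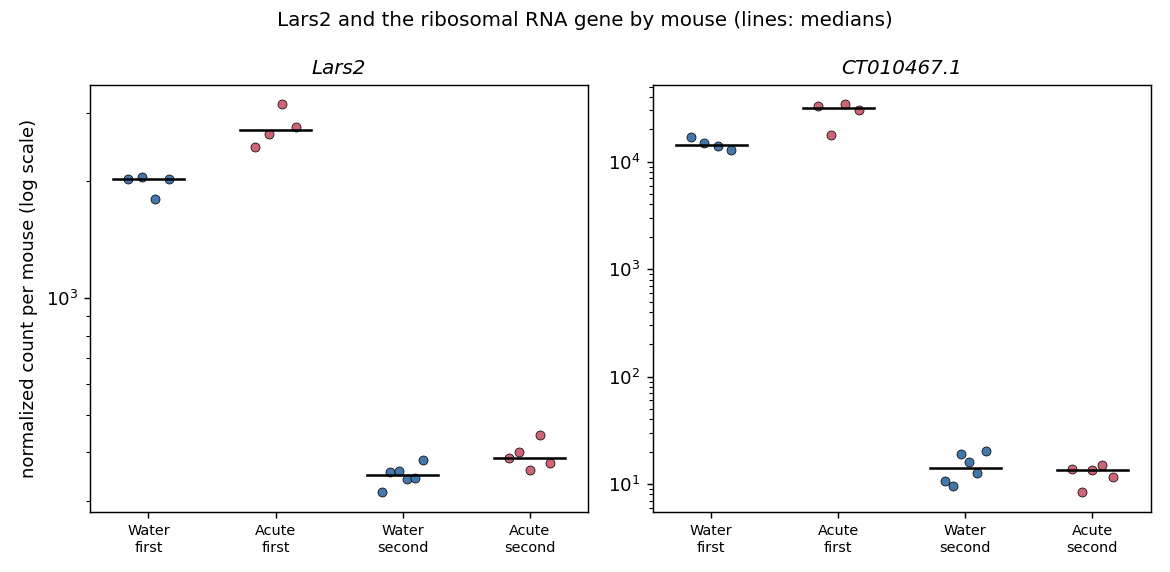
Normalized count per mouse (log axis) of *Lars2* and the ribosomal RNA gene *CT010467.1* in Water and Acute mice of each batch, with lines at the medians. In the first batch the Acute mice lie above the Water mice for both genes (medians 2700 and 2026 for *Lars2*), and in the second batch both genes are far lower, at medians of 386.6 and 349.8 for *Lars2*.

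Across gene groups chosen for the tissue and treatment, the glucocorticoid-responsive genes held 7 higher members and 1 lower member of 19 tested at an unadjusted p under 0.05, beside 5.07 and 4.45% of all genes. The median log2 fold change was 0.12, beside 0.001 over all genes, and none passed the adjusted threshold. At the same p, 3 of 10 astrocyte markers were higher (median of the 10, -0.008) and 2 of 10 precursor markers (median 0.02), and their part in the list was not tested. Besides *Nfkbia* and *Mt1*, the higher members were *Arl4d*, a small GTPase (175.4 to 243.6 counts against 119.7 to 217.1, log2 fold change 0.32 ± 0.10), *Arrdc2*, an arrestin-domain protein (115.7 to 165.4 against 96.6 to 146.9, 0.22 ± 0.07), *Cdkn1a*, the p21 cell-cycle inhibitor (0.22 ± 0.08), *Tsc22d3*, the glucocorticoid-induced leucine zipper (0.16 ± 0.06), and *Sult1a1*, a sulfotransferase (0.31 ± 0.14). The groups overlapped for each. *Fkbp5*, a co-chaperone of the receptor, had a log2 fold change of 0.05 ± 0.05 (adjusted p = 0.73) and *Sgk1*, a serum- and glucocorticoid-induced kinase, one of 0.18 ± 0.09 (adjusted p = 0.532). The lower member was *Per1*, a clock repressor that corticosterone induces, with 1600 to 1878 counts in Acute mice and 1821 to 2152 in Water mice (-0.14 ± 0.05).

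*Per1* was joined by 3 further clock genes. Of 19 circadian genes 4 were lower and none was higher, with a median of -0.03. *Clock*, the activator, had 1583 to 1858 counts against 1740 to 2157 (-0.13 ± 0.04), and *Hlf* and *Per2* differed by -0.15 ± 0.06 and -0.13 ± 0.06 on the log2 scale. The methods give 1 collection time in the light phase for all mice, and times of single mice were not given in the sources used here. Of 28 immediate early genes, 2 were higher (*Klf2* and *Btg2*) and 2 were lower, near the 5.07 and 4.45% of all genes. The lower genes were the orphan nuclear receptors *Nr4a2* (526 to 1007 counts against 670 to 2197, medians 918.6 and 931, -0.53 ± 0.20) and *Nr4a3* (-0.21 ± 0.09). The *Nr4a2* medians were close, and 4 Water mice, 2 in each batch, lay above every Acute mouse (1278 to 2197). The counts of this list moved with single mice. Without Acute mouse 33, 4 of the 28 genes were higher and 1 lower, and without Water mouse 3, 4 were higher and 2 lower. *Fos*, the classic activity marker, had 370.7 to 636.8 counts against 399.6 to 564.1 (medians 547 and 460.4, 0.19 ± 0.10, adjusted p = 0.545), and *Arc*, an activity-induced synaptic gene, had a log2 fold change of 0.14 ± 0.11.

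In peptide signalling, *Nts* was the only one of 17 neuropeptide genes at an unadjusted p under 0.05, beside 5.07% of all genes higher and 4.45% lower. Without Acute mouse 3 or 5, or Water mouse 41 or 5, 3 of the 17 were higher. Without Acute mouse 34, 2 were higher and 1 was lower. The median of the list was 0.13 and 14 of the 17 had a positive sign. The summed central amygdala markers also had the higher median in Acute mice (458.7 against 405.7 CPM). Of those 7 markers, *Nts*, *Crh*, *Tac2* and *Sst* are themselves neuropeptides, and the other 3, *Dlk1*, *Prkcd* and *Calcrl*, had log2 fold changes of 0.22, 0.11 and -0.05. The part of the share of central nucleus tissue in the peptide values was not tested. *Crh*, corticotropin-releasing hormone, had 113.5 to 197.9 counts in Acute mice and 96 to 171.5 in Water mice (medians 165.9 and 129.8), with a log2 fold change of 0.29 ± 0.15 (adjusted p = 0.535). *Pnoc*, the nociceptin precursor, differed by 0.26 ± 0.13 and *Sst*, somatostatin, by 0.07 ± 0.04. Among 13 genes of the granin and peptide-processing machinery, which load and cleave peptides in dense-core vesicles, 6 were higher and none was lower (median 0.06), beside 5.07 and 4.45% of all genes. These were *Chga*, *Pcsk1n*, *Nenf* (0.20 ± 0.06), *Enho* (0.14 ± 0.05), *Scg2*, secretogranin II (6316 to 11230 counts against 4328 to 8793, 0.29 ± 0.12), and *Vgf* (0.11 ± 0.05). *Nenf* and *Enho* encode secreted factors rather than vesicle machinery. *Chga*, *Pcsk1n*, *Nenf* and *Enho* are also genes that the study listed from these same libraries, so their place in the count is not independent evidence.

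The counts of the next lists are to be read beside the 5.07% of all genes that were higher and the 4.45% that were lower at an unadjusted p under 0.05. Of 11 genes of ethanol and acetate metabolism, none was at an unadjusted p under 0.05 in either direction, with the lowest p in *Aldh3a2*, an aldehyde dehydrogenase, at 0.04 ± 0.03 (adjusted p = 0.704). Of 14 GABA-A receptor subunits 1 was lower, *Gabrb2* (-0.16 ± 0.07), and of 10 NMDA and AMPA receptor subunits none was at an unadjusted p under 0.05 (*Grin2a*, -0.13 ± 0.08). Of 26 heat shock and unfolded protein response genes only *Hspa4* was, at -0.05 ± 0.02. The antioxidant list had 4 of 24 higher, *Srxn1*, *Mt1*, *Sqstm1* (0.06 ± 0.03) and *Prdx1* (0.09 ± 0.04), with *Mt2* at 0.09 ± 0.09 (adjusted p = 0.787). Its count became 7 without Acute mouse 5 or Water mouse 2. It fell to 2 without Acute mouse 33 or 35, or without Water mouse 4 or 6. Among 13 NF-kB subunits and feedback genes, *Nfkbia*, *Rela* (0.12 ± 0.05) and *Nfkbib* (0.11 ± 0.05) were higher and the median was 0.002. Of 16 clathrin coat and adaptor genes, *Cltb* was higher and *Fcho2*, an early endocytic nucleator, lower at -0.11 ± 0.04.

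Among the gene lists, and without correction for GC and length, histone demethylases and methyltransferases held the highest shares of lower members, beside 4.45% of all genes lower and 5.07% higher. With GC and length offsets these became 5 of 18 and 1 of 23. Of 18 histone demethylases 7 were lower and none higher (median -0.075, 17 of 18 with a negative sign), led after *Kdm3a* by *Kdm7a* (718.1 to 841.4 counts against 791.6 to 1035, -0.21 ± 0.06) and *Kdm2a* (-0.13 ± 0.04). Of 23 methyltransferases 7 were lower and none higher (median -0.08, 1 of 23 lower with offsets, 11 of 23 without Acute mouse 4), led by *Setd1b*, of a complex that methylates histone H3 lysine 4 (986.5 to 1183 counts against 1089 to 1328, -0.19 ± 0.06), with *Kmt2e*, *Kmt2b* and *Ash1l* between -0.13 and -0.08. Of 19 acetyltransferases and NSL members 5 were lower and 1, *Kansl2* (0.08 ± 0.03), was higher. *Hcfc1*, *Phf20l1* and *Ep300*, the p300 coactivator, differed by -0.10 ± 0.03, -0.13 ± 0.05 and -0.11 ± 0.04. Deacetylases and their partners had 2 of 22 lower (*Chd1* and *Ncor1*) and 1 higher (*Hdac11*, at 0.07 ± 0.03), and 31 CELF, HNRNP and SR splicing regulators had 3 lower (*Celf1*, *Hnrnpm*, *Hnrnph1*) and 1 higher (*Nova1*), with the higher counts of both lists near or under the share of all genes.

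In the other direction, of 84 cytosolic ribosomal protein genes 18 were higher and none was lower, 82 had a positive sign, and the median log2 fold change was 0.07 (0.13 and 0.04 in the respective batches). *Rps7*, *Rps4x* and *Rpsa* differed by 0.13 ± 0.04, 0.10 ± 0.03 and 0.12 ± 0.04. These genes have many processed copies, and *Rps7*, *Rps4x* and *Rpsa* share 64.3, 78.4 and 46.1% of their 31-base words with other genes, so that their counts are uncertain. Of 74 nuclear-encoded respiratory chain subunits 14 were higher and none lower (median 0.06), among them *Uqcrc1* (0.11 ± 0.03) and *Sdhb* (0.12 ± 0.04), while of 74 mitochondrial ribosomal proteins 6 were higher and none lower (8.11% of the list, median 0.04), a share near that of all genes in the shortest length bin given further on (8.04%), with *Mrpl10* at 0.10 ± 0.03 and *Mrpl2* at 0.14 ± 0.05. Of 17 mitochondrial aminoacyl-tRNA synthetases, *Lars2* was higher and *Vars2* lower (-0.09 ± 0.04). These counts moved with single mice. The 18 cytosolic ribosomal protein genes became 42 without Acute mouse 5, 30 without Water mouse 2, and 10 without Acute mouse 33 or Water mouse 4. The 14 respiratory chain genes became 27 without Acute mouse 5 and 9 without Water mouse 4 or 6, and the 6 mitochondrial ribosomal proteins 14 without Acute mouse 5. In none of these were cytosolic ribosomal or respiratory chain genes lower at that p. The mean level of the ribosomal list per mouse, centred within batches, ran from -0.14 to 0.13 in Acute mice and from -0.21 to 0.09 in Water mice on the log2 scale, so that the groups overlapped.

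**Figure D4:**
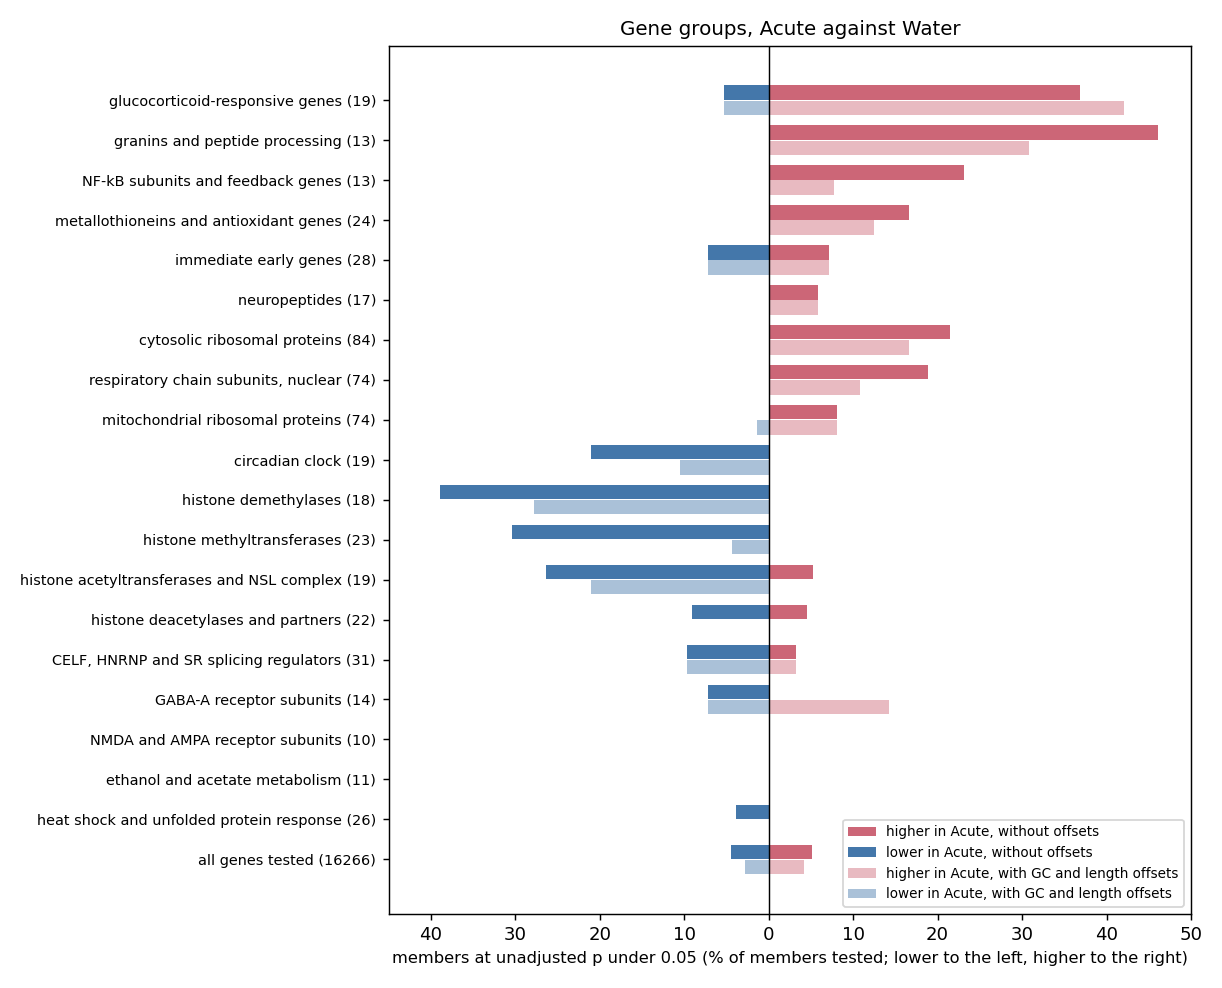
Share of tested members at an unadjusted p under 0.05 in each gene group (number tested in brackets), lower in Acute to the left and higher to the right, without offsets (dark) and with GC and length offsets (pale). Without offsets, glucocorticoid-responsive genes (7 of 19) and peptide-processing genes (6 of 13) extend to the right and demethylases (7 of 18) and methyltransferases (7 of 23) to the left, beside 5.07 and 4.45% of all genes. With offsets the methyltransferase bar shrinks to 1 of 23. The groups were chosen with earlier results of these data known.

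Transcript length moved with these groups. With genes cut into 5 bins by the length of their longest transcript, 8.04% of the shortest bin (up to 1865 bases) were higher and 1.87% lower at an unadjusted p under 0.05, whereas 0.923% of the longest (5192 bases and more) were higher and 12.8% lower. The median log2 fold change of the longest bin was -0.04 in both batches. By GC content, 1.91% of the lowest bin were higher and 7.62% lower, and 8.39% of the highest were higher and 2.27% lower. For single mice, the slope of log2 CPM on log10 length had a median of -0.04 in Acute mice and 0.04 in Water mice (2-sided exact permutation p = 0.017, adjusted over 7 library measures 0.12; first batch exact p = 0.029, second exact p = 0.22). Methyltransferases (median 6808 bases) and demethylases (6147) are long and cytosolic ribosomal protein genes (1100) short, beside 3292 for all genes. With each mouse's trend on GC and length taken up as offsets, 680 genes (4.18%) were higher and 462 (2.84%) lower at an unadjusted p under 0.05, again with none past the adjusted threshold. Under these offsets, 8 of 19 glucocorticoid-responsive genes were higher, 4 of 13 peptide-processing genes, 14 of 84 cytosolic ribosomal proteins, 8 of 74 respiratory chain subunits, 6 of 74 mitochondrial ribosomal proteins (with 1 lower) and 1 of 13 NF-kB genes, and 5 of 18 demethylases, 4 of 19 acetyltransferases, 2 of 19 clock genes and 1 of 23 methyltransferases were lower. *Nts* (0.56), *Btg2* (0.41), *Klf2* (0.29), *Nfkbia* (0.23) and *Mt1* (0.16) kept log2 fold changes near those above, and *Kdm3a* and *Kat6a* stood at -0.14 and -0.09.

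**Figure D5:**
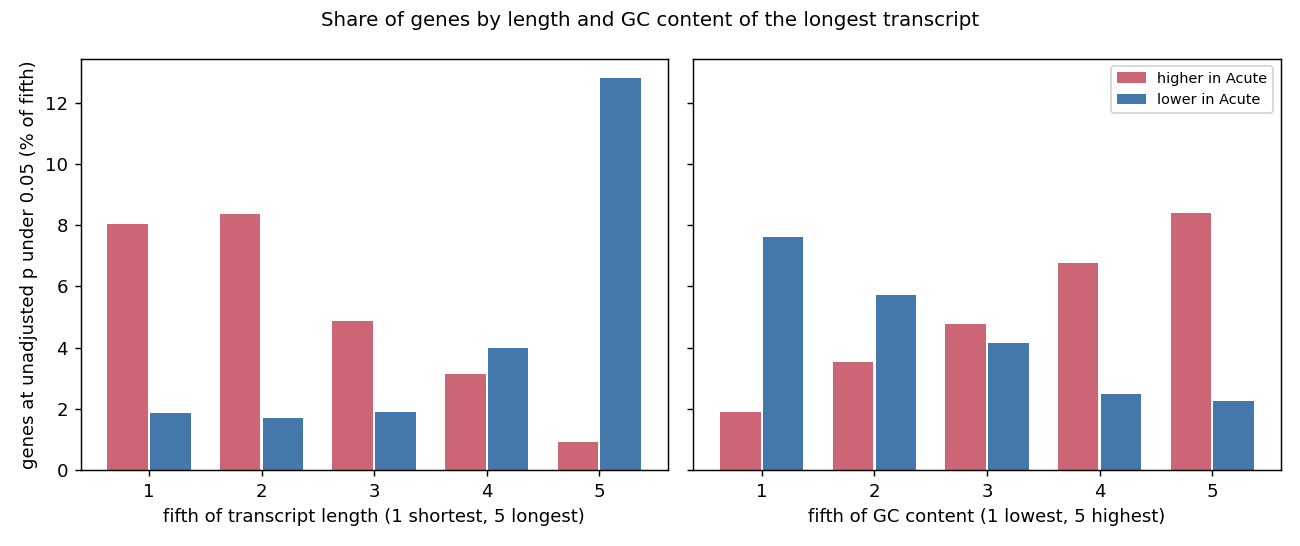
Share of genes (%) at an unadjusted p under 0.05 in each of 5 bins of transcript length and of GC content, higher in Acute and lower in Acute as separate bars. The longest bin holds 12.8% lower and 0.923% higher genes, the shortest 1.87% and 8.04%.

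The batches were also read separately. At an unadjusted p under 0.05, 1172 genes passed in the first batch alone and 814 in the second, and 67 genes (0.412% of all tested) passed in both with the same sign, 36 higher and 31 lower. These were 5.72% of the first-batch genes and 8.23% of the second-batch genes. The sign was shared by 57.2% of all genes, by 67% of the first-batch genes and by 71.4% of the second-batch genes. No interaction of batch and drinking passed the adjusted threshold (0% called, lowest adjusted p = 0.978), and 671 genes (4.13%) had an unadjusted interaction p under 0.05. Once levels were centred within batches, the mice of the groups did not overlap for 1 higher gene (0.00615%) and 2 lower genes (0.0123%). *Ppp1r3f*, a glycogen-targeting subunit of protein phosphatase 1, had 470.9 to 542.5 counts in Acute mice and 398.3 to 486.3 in Water mice (0.18 ± 0.04). *Tjp1*, the tight-junction scaffold ZO-1, had 1778 to 2050 counts against 2001 to 2192 (-0.13 ± 0.04). The long non-coding RNA *9230114K14Rik* had 21 to 28.7 counts against 27.5 to 43 (-0.52 ± 0.12). The 3 genes were picked out of all tested for this separation, which is therefore a description. Of the genes with the lowest p among the lower ones, *Usp37*, a deubiquitinase, *Pik3c2a*, a class II lipid kinase, and *Med1*, a Mediator subunit, differed by -0.17 ± 0.04, -0.17 ± 0.04 and -0.12 ± 0.03, and *Dok5*, an adaptor of receptor kinases, was among the higher ones at 0.20 ± 0.05.

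Set beside the Chronic Drinking group, which was compared with the same Water mice, 3 of these genes passed the adjusted threshold in the chronic comparison. They were also the only genes that did, 2 higher (0.0123%) and 1 lower (0.00615%). *Klf2* differed from Water by 0.33 in the Acute and 0.54 in the Chronic Drinking group (chronic adjusted p = 6.5e-05), *Haghl* by 0.18 and 0.21 (adjusted p = 0.019) and *Kdm3a* by -0.16 and -0.23 (adjusted p = 0.0067). For *Nts*, *Btg2* and *Arl4d* the acute values of 0.55, 0.42 and 0.32 stood beside chronic values of 0.24, 0.20 and 0.01. In the direct test of Chronic against Acute, no gene passed in either direction (0% higher and 0% lower), and the differences were 0.21 for *Klf2*, -0.31 for *Nts* and -0.22 for *Btg2*, each with an adjusted p of 0.998 or more.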

How the data were processed

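Amygdala RNA of 28 mice was measured by paired-end sequencing (BGISEQ-500). The authors' methods name FastQC, Salmon, tximport, GRCm38/mm10 and GENCODE M21, and the deposited values are raw whole-number counts per gene in 1 table per batch, before batch adjustment. Genes in both tables (49477) with a mean of at least 10 counts were tested (16266). edgeR 4.0.16 (TMM, quasi-likelihood, batch + group, all 28 mice) in R 4.3.3 gave log2 fold changes, SE and Benjamini-Hochberg adjusted p; limma 3.58.1, DESeq2 1.42.0 and sva 3.50.0 (ComBat-seq) served as alternatives; DESeq2 gave no adjusted p for 5047 genes with batch and 3159 after ComBat-seq. Each pipeline was tested on simulated data, apart from ComBat-seq. Normalized counts are scaled to the mean effective library size; log2 CPM uses a prior count of 2. Counts were 20004380 to 22548961 per library, which limits precision for low genes; SE and p include the spread between mice.

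Members and gene lists were chosen with earlier results of these data known. Named genes were those called by an alternative, the study's list, the 10 lowest p per direction with equal sign in both batches, the 4 lowest p of each list (any member of 5 response or peptide lists) and the 5 lowest of the interaction; genes picked after their values were seen are said to be so. Lists carry no test of their own. GC content and length come from the longest GENCODE M21 transcript of each gene; offsets were splines with 4 df each. Replicates were separate mice as the labels give them. Same-numbered mice of the second batch were not paired by the labels. Of the genes that the rule for named genes picked, 1 is not reported here.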

Additional observations from a re-analysis of the deposited data

Results flagged for a closer look

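Within the 9 Acute or 10 Water mice, 1 mouse stood apart from the others of its group (Dixon's ratio at 95%, levels as log2 CPM centred within batches) in 15 of 214 gene and group combinations (7.01%), where chance flags about 1 in 20. This grouping was chosen after the same ratio had been seen within the groups of each batch (4 to 6 mice, normalized counts), where 31 of 428 combinations (7.24%) stood apart; only the former are listed. Acute mouse 5 of the second batch was low in 5 of them, at -0.15 for *Lrrc24*, -0.14 for *Flywch2*, -0.11 for *Rps7*, -0.10 for *Sdhb* and -0.18 for *Rpsa*. Other Acute mice stood apart at -0.145 for *Celf1* (mouse 33), -0.20 for *Tjp1* (mouse 1), -0.57 for *Arc* (mouse 33), 0.18 for *Nfkbib* (mouse 2) and -0.22 for *Chd1* (mouse 3). Water mice stood apart at 0.12 for *Tsc22d3* and -0.11 for *Setd1b* (mouse 1), 0.086 for *Rps7* (mouse 2), and -0.23 for *Uqcrc1* and -0.38 for *Lrwd1* (mouse 4).

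For 4 of the 5 genes with the lowest interaction p, every Acute mouse, on the log2 CPM scale, lay on one side of the Water mean of the first batch and on the other side in the second (on normalized counts, 1 second-batch Acute mouse lay below the Water mean for *Vps51*, at 1157 against 1159), and no interaction passed the adjusted threshold (adjusted p of 0.978 or more). The second-batch minus first-batch difference in log2 fold change was 0.37 for *Rab10os*, 0.47 for *Lrwd1*, -0.34 for *Akap12* and 0.46 for *Vps51*. The fifth, *Rxrb*, differed by -0.58, at 0.61 and 0.03 in the respective batches. Levels of some of these genes differed between batches in both groups: *Vps51* had means of 98.7 (Acute) and 128.4 (Water) in the first and 1224 and 1159 in the second, and *Rxrb* 300.7 and 197.2 beside 1065 and 1044. The table of each batch also holds genes that the other lacks. The authors' methods name GENCODE M21 for the gene-level counts, and why the genes differ between the batches is not given in the sources used here.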

How the results depend on the processing

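No gene was called by edgeR under RLE or upper quartile factors, a mean of at least 100 counts, only Acute and Water mice, either batch alone, the replicate block (lowest adjusted p = 0.255), GC and length offsets, or the block with those offsets. One gene was called without the filter (*CT010467.1*), 2 by limma-voom with quality weights (*CT010467.1* and *Mir6236*), 8 by DESeq2 with batch and 30 after ComBat-seq; leaving out single mice gave 0 to 1, the 1 being *CT010467.1* without Acute mouse 34. At an unadjusted p under 0.05 there were 2525 genes without the filter, 814 in the second batch alone, and 1106 (without Water mouse 4) to 1920 (without Acute mouse 5) with single mice left out. RLE factors turned the split of 825 higher and 724 lower genes into 765 and 776. Interaction calls numbered 0 to 1 (1 without Acute mouse 36 or Water mouse 43), and genes whose groups do not overlap 2 to 7 (2 with a mean of at least 100 counts, 7 without Water mouse 3). Of 107 named genes, 100 kept their sign in every alternative that gave a value (*Mir6236* has none in the second batch, where every mouse had 0 counts). In the first batch alone, *4933427D14Rik* (-0.15), *Fkbp5* (-0.0126) and *Akap12* (0.18) had the other sign, and in the second batch alone *CT010467.1* (-0.23), *Rab10os* (0.11), *Lrwd1* (0.19) and *Vps51* (0.0775). *Akap12* turned to 0.00263 with offsets, 0.0125 with block and offsets, and ran from -0.0558 to 0.00468 with single mice left out, *Lrwd1* from -0.0472 to 0.0257, and *Vps51* was 0.0226 by voom. The cause was not tested. With the replicate block 1390 genes were at an unadjusted p under 0.05, and 1057 with block and offsets. Same-numbered second-batch mice deviated together with correlations of -0.24 to 0.34, and 0 of 5 Acute mice were closest to the Water mouse of their number, so the numbers do not pair the mice.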

Other observations

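The values of *Cdhr4* and *Spag17* are given as a description, since both genes were picked after their values were seen. *Cdhr4* had 6.3 to 44 counts in Acute mice and 6.4 to 104.5 in Water mice (medians 27.8 and 39.2), with log2 fold changes of -1.16 and -0.74 in the batches, and *Spag17*, a component of the ciliary central apparatus, -1.09 and -0.66. They share 49.5 and 15.7% of their 31-base words with other genes. The 11 markers of choroid plexus and ependyma had medians of -0.54 and 0.18 in the batches, and none was at an unadjusted p under 0.05. The part of ependymal tissue in the punches was not tested.

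Further low-abundance genes, also picked after their values were seen, were *Ghsr*, the ghrelin receptor, with 6.28 to 15.7 counts against 8.54 to 30.4 (-1.31 and -0.62 in the batches, adjusted p = 0.359), and *Itgal*, an integrin of leukocytes, with 8.54 to 56.5 against 8.53 to 24.9 (1.13 and 0.66, adjusted p = 0.359).

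The labelled sex matched the data: 4 Y-linked genes summed to at most 46 counts in a mouse, beside a median of 8613 for *Xist*.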
